A study of Mus musculus with 54 samples.

Results

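Testis RNA of F2 mice whose mothers came from the dose 2 group was compared with testis RNA of F2 mice whose mothers came from the dose 1 group. The father came from the control group in both crosses. The libraries were taken by their labelled cross, 3 for each mother, which makes 6 of the 54 libraries of the series. Drinking water of pregnant females and their offspring held a mixture of ibuprofen, its metabolite 2-hydroxyibuprofen, diclofenac and 17a ethinyl-estradiol from 8.5 days post coitum. Ibuprofen was at 11.3 ng/L in dose 1 and 113 ng/L in dose 2, and 2-hydroxyibuprofen at 90 and 225 ng/L. Diclofenac was at 22.5 and 112 ng/L and ethinyl-estradiol at 2.25 and 45 ng/L, so the ratio of the compounds also differed between the doses. Control water held 0.001% ethanol. Testes were taken at 35 days post partum, and the labels give no treatment for the F2 males themselves. The labels name no genotype, strain or transgene. The labels do not state whether libraries of a cross came from separate animals or litters. The p-values below therefore measure only the spread between libraries. In the main fit that spread was estimated over all 18 F2 testis libraries.

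A mouse testis at this age holds spermatogonia, which divide by mitosis, spermatocytes in meiosis, and round and elongating spermatids of the first waves of sperm formation. Sertoli cells support these germ cells inside the tubules, and Leydig cells between the tubules make androgens. Ibuprofen and diclofenac block cyclooxygenases, which make prostaglandins, and ethinyl-estradiol activates estrogen receptors. In bulk tissue, fewer cells of a type and less RNA per cell cannot be told apart.

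Very few RNAs separated the 2 mothers' doses. Of 19379 genes tested, 3 passed at an adjusted p of 0.05 and all were lower with a dose 2 mother: Malat1, a long RNA kept in nuclear speckles; Rn45s, the 45S precursor of ribosomal RNA; and Mir7210, an annotated microRNA locus. No gene passed in the higher direction in the main fit. The 3 genes that passed are 0.0155% of those tested. Testis markers were present as the label requires: Prm2, a protamine gene, had a mean of 3483 CPM (counts scaled to library size, per mega) in the dose 2 libraries and Cyp17a1, a Leydig cell enzyme of androgen synthesis, 409.7 CPM.

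Total counts per library were 36.1 to 48.2 M (M for mega), with the dose 2 library C deepest. On the first principal component of all 18 F2 testis libraries, which held 11.3% of the variance, dose 1 library A lay at -27. It stood apart from dose 1 B and C, at 3.9 and 10.4, while control cross libraries A, B and C lay at -26.4, -8.88 and -17.7. The dose 2 libraries lay at 12.1, 12.9 and 23.8. Some results are therefore also given without dose 1 A. Not every gene for which it was the most extreme library has such a value.

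The sequences of the RNAs that carry the difference come first, from RefSeq tables of GRCm38.p6, an older build than the mm39 used by the authors. Mir7210 is on the plus strand at chr14:24088877-24088930. Its hairpin gives 2 mature microRNAs, and 2 more loci, Mir6236 and Mir7241, come up in the results below. Capitals mark the seed, bases 2 to 8 from the 5′ end.
Mir7210 hairpin: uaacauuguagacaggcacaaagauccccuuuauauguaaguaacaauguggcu
mmu-miR-7210-5p: uAACAUUGuagacaggcacaaag
mmu-miR-7210-3p: uUAUAUGUaaguaacaauguggcu
mmu-miR-6236: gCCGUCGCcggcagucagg
mmu-miR-7241-5p: aCUUGCAUgaguuaauacccacc
The mature sequences lie at chr9:110281353-110281371 on the plus strand for miR-6236 and at chr9:67727758-67727780 on the minus strand for miR-7241-5p. All 4 seeds differ, so these microRNAs form no seed family. The libraries were made from mRNA, so counts at these loci are reads that overlap the hairpin gene, and the level of the mature microRNA was not measured.

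Malat1 and Kcnq1ot1, a long antisense RNA made from the paternal copy of an imprinted domain, were both low in the dose 2 libraries, and the 300 bases around their start sites are shown for that reason. Each promoter runs from 250 bases before the start to 50 after it, on the minus strand, at chr19:5802623-5802922 for Malat1 and chr7:143296498-143296797 for Kcnq1ot1. Capitals mark TGACG, the core of the cAMP response element, and CCAAT, the letters of the CCAAT box, on either strand.
Malat1 promoter: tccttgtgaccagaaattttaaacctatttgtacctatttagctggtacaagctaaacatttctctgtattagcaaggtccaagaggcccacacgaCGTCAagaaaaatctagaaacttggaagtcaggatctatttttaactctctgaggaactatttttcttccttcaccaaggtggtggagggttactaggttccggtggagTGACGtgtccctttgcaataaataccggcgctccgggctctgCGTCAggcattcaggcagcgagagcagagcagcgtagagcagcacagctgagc
Kcnq1ot1 promoter: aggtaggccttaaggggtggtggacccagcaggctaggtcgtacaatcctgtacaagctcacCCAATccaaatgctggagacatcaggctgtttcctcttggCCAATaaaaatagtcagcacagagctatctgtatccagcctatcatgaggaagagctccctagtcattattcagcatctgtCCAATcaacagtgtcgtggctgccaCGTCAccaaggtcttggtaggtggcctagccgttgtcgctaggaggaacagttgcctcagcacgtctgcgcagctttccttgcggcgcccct
Malat1 held 3 matches to TGACG and 0 to CCAAT. Kcnq1ot1 held 1 match to TGACG and 3 to CCAAT. Of 32851 promoters of the same length, 20.8% held TGACG and 37.4% held CCAAT on either strand, so both are common letters. Searches for GGGCGG (35.7% of promoters), TATAAA (13.6%) and AGGTCA, the hexamer in estrogen response elements (16.3%), found 0 matches in both windows. The motifs did not overlap each other in these windows, and a match is a description of letters only.

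Malat1 was lower in every dose 2 library. Its level was 807, 950 and 642 CPM in dose 1 libraries A, B and C and 269, 366 and 302 CPM in dose 2 libraries A, B and C. The lowest dose 1 library was thus well above the highest dose 2 library. The mean was 312 ± 49.5 CPM with a dose 2 mother against 800 ± 154 with a dose 1 mother (SD, n = 3 each), and the log2 fold change was -1.36 with a standard error of 0.20 (edgeR quasi-likelihood test, Benjamini-Hochberg adjusted p = 0.0317). The control cross lay beside the dose 1 mothers, at 1073, 793 and 890 CPM. With both parents from dose 2, the libraries lay between the 2 maternal crosses, at 399, 605 and 415 CPM.

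Rn45s had 262, 237 and 248 CPM in the dose 1 libraries and 140, 166 and 165 CPM in the dose 2 libraries. The spread within each group was small and the groups did not overlap. Its log2 fold change was -0.66 with a standard error of 0.10 (edgeR adjusted p = 0.0317). Control cross libraries, at 267, 239 and 246 CPM, lay close to the dose 1 libraries. Ribosomal RNA precursors have no poly(A) tail, and counts of such repeated genes depend on how reads with many matches were treated, which no source used here gives.

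Mir7210 was counted at 1.49, 1.5 and 1.17 CPM with a dose 1 mother and 0.55, 0.41 and 0.35 CPM with a dose 2 mother. This rests on few reads: 59, 57 and 42 against 21, 16 and 17. All 3 dose 2 libraries were lower even so, and the log2 fold change was -1.67 with a standard error of 0.25 (edgeR adjusted p = 0.0317). The control cross had 1.74, 1.38 and 1.48 CPM. As for Malat1, the control cross lay beside the dose 1 mothers.

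**Figure D1:**
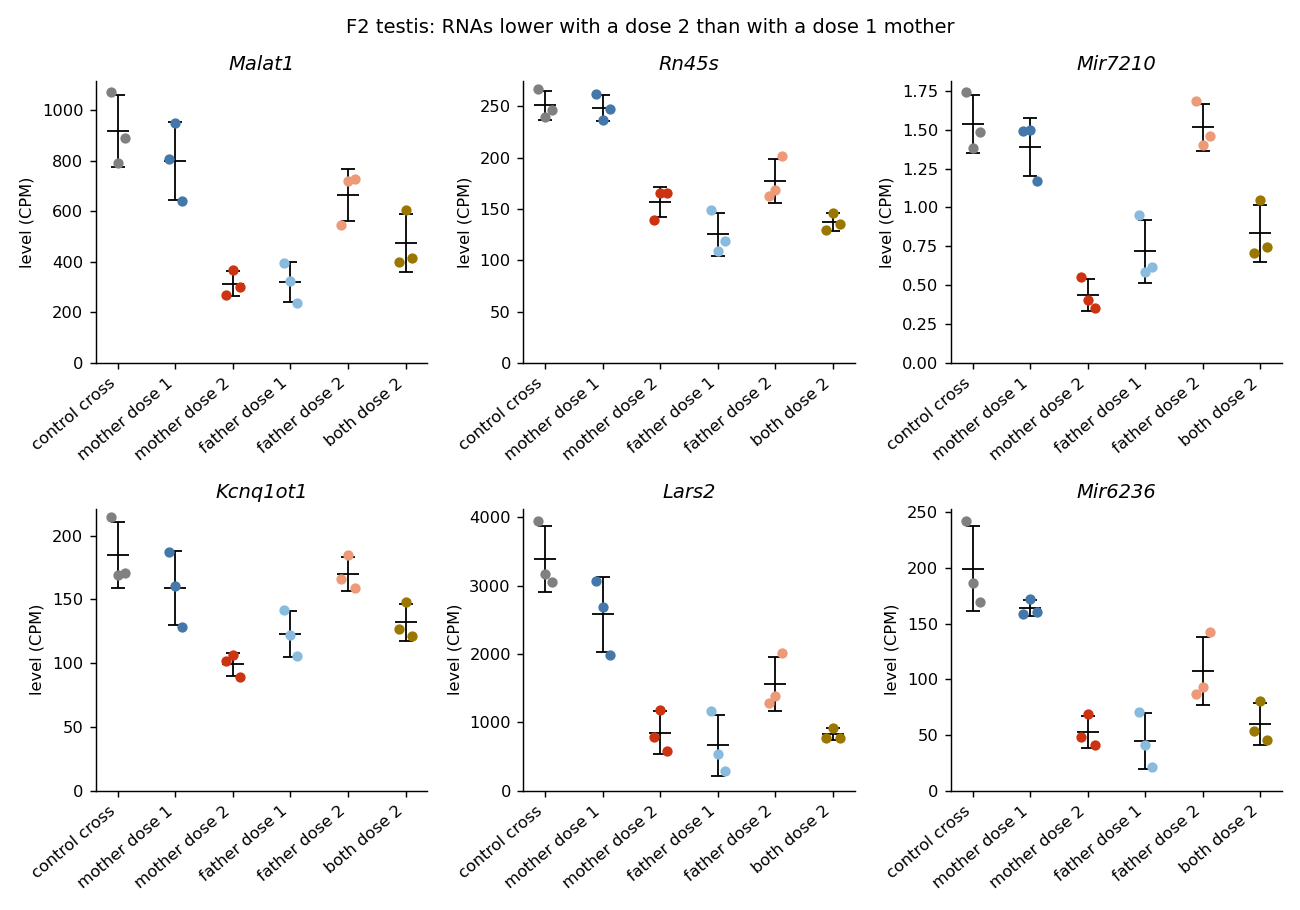
Levels in CPM (vertical axis, from 0) of 6 RNAs in the 6 crosses of F2 testis; points are libraries, the long bar the mean and the whiskers 1 SD (n = 3). Malat1, Rn45s and Mir7210 passed the test between the mothers' doses, with dose 2 mothers (red) at 269 to 366 CPM for Malat1 against 642 to 950 CPM for dose 1 mothers (dark blue), and the control cross lay near the dose 1 mothers for each of the 3.

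The 3 calls depended on single libraries, while their direction did not change in any of the fits tried. Without dose 1 library A no gene passed in edgeR, with 1324 genes at an unadjusted p under 0.05, and the log2 fold changes were -1.35 for Malat1 (adjusted p = 0.196), -0.63 for Rn45s (adjusted p = 0.269) and -1.61 for Mir7210 (adjusted p = 0.245). The count was also 0 without dose 1 B, dose 2 A or dose 2 C (1781, 1577 and 1210 genes at an unadjusted p under 0.05), 2 without dose 2 B and 18 without dose 1 C. DESeq2 on the same counts called 62 genes, 54 of them lower. With only the 6 libraries compared in the fit, the edgeR adjusted p was 0.0687 for Malat1 and Rn45s and 0.318 for Mir7210.

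Behind these 3 came 10 named genes that were lower and did not pass. They had the next lowest p-values among genes that had no overlap between groups and whose higher group averaged 1 CPM or more, so that Pcdha5, described below, is not among them. They were Ctla2a, Olfr856-ps1, Cpa6, Mrgpra6, Grk1, Mir6236, Myoparr, Kcnq1ot1, Prnp and Vmn2r-ps54. Their edgeR adjusted p-values ran from 0.0694 to 0.115. By kind, 2 are receptor pseudogenes, 2 are long non-coding RNAs and 1 is a microRNA locus. A further 2 predicted genes had p-values as low and are counted only.

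Kcnq1ot1 was at 187, 161 and 129 CPM with a dose 1 mother and 102, 107 and 89.2 CPM with a dose 2 mother. Every dose 2 library lay below every dose 1 library. The control cross, at 215, 169 and 171 CPM, overlapped the dose 1 libraries. The log2 fold change was -0.68 with a standard error of 0.13 (edgeR adjusted p = 0.0914), and it was -0.55 without dose 1 A (edgeR adjusted p = 0.411). As an antisense RNA its count depends on the strand setting, which no source used here gives.

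Mir6236 was counted at 159, 173 and 160 CPM against 47.9, 68.5 and 40.5 CPM, a log2 fold change of -1.65 with a standard error of 0.32 (edgeR adjusted p = 0.0914). Its dose 1 libraries were close together and lay far above all dose 2 libraries. Lars2, which encodes the mitochondrial leucyl-tRNA synthetase, had 3069, 2682 and 1982 CPM against 782, 1186 and 582 CPM. Its log2 fold change of -1.60 was as large, but its libraries varied more (standard error 0.35, edgeR adjusted p = 0.159). Lars2 is also a member of the list of nuclear-retained and ribosomal precursor RNAs described below. Which RNA the reads counted at Lars2 and Mir6236 came from was not tested, so a fall of the Lars2 mRNA is not shown.

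Among protein-coding genes of this group, Ctla2a, a cysteine protease inhibitor, showed little spread: 8.63, 8.49 and 8.15 CPM with a dose 1 mother and 5.58, 5.40 and 5.48 CPM with a dose 2 mother. Its log2 fold change was -0.62 (standard error 0.11, edgeR adjusted p = 0.0694). Cpa6, a carboxypeptidase gene, had 5.21, 5.07 and 4.97 CPM against 2.95, 3.40 and 3.04 CPM. Both genes had groups that were several times their own spread apart. Grk1, best known as the rhodopsin kinase of photoreceptors, had 8.86, 9.38 and 7.31 CPM against 5.03, 5.83 and 4.79 CPM. Prnp, the prion protein gene, had 66.6, 55.6 and 57.0 CPM against 44.0, 48.0 and 44.5 CPM, the smallest difference of the 10 at -0.39. Mrgpra6, a Mas-related receptor gene, had 1453, 1091 and 982 CPM against 782, 853 and 724 CPM. Dose 1 A was its highest library.

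In the other direction no gene passed, and the 10 genes with the lowest p-values had edgeR adjusted p-values from 0.0694 to 0.283. Zfp61, a zinc finger gene, came first, with 15.0, 13.8 and 14.0 CPM in the dose 1 libraries and 20.2, 20.6 and 19.4 CPM in the dose 2 libraries. Its groups were far apart for their spread, with a log2 difference of 0.49 (standard error 0.09, edgeR adjusted p = 0.0694). The control cross lay between the mothers' doses, at 18, 16.3 and 18.1 CPM. Rxfp2 encodes the receptor for the Leydig cell hormone INSL3. It had 5.21, 6.73 and 8.01 CPM against 8.92, 11.8 and 11.7 CPM, a log2 difference of 0.70 (standard error 0.15, edgeR adjusted p = 0.123). Insl3 itself had 61.3, 74.6 and 73.9 CPM against 49.3, 65.1 and 111 CPM, with overlapping groups (edgeR adjusted p = 0.907).

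Prr15l had 2.30, 2.39 and 2.54 CPM with a dose 1 mother and 4.47, 3.40 and 4.21 CPM with a dose 2 mother, a log2 difference of 0.74 (standard error 0.15, edgeR adjusted p = 0.0952). The other 7 were Mios, a component of nutrient signalling to mTORC1; Wbp4, a splicing factor; Chfr, a mitotic checkpoint ubiquitin ligase; Sfi1, a centrosome gene; Lama5, a laminin chain; Gpsm2, a spindle orientation gene; and Ywhaq, a 14-3-3 protein gene. Their log2 differences ran from 0.20 for Chfr to 0.63 for Sfi1. Sfi1 was the most variable of the 7, with dose 2 libraries at 139, 168 and 230 CPM.

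**Figure D2:**
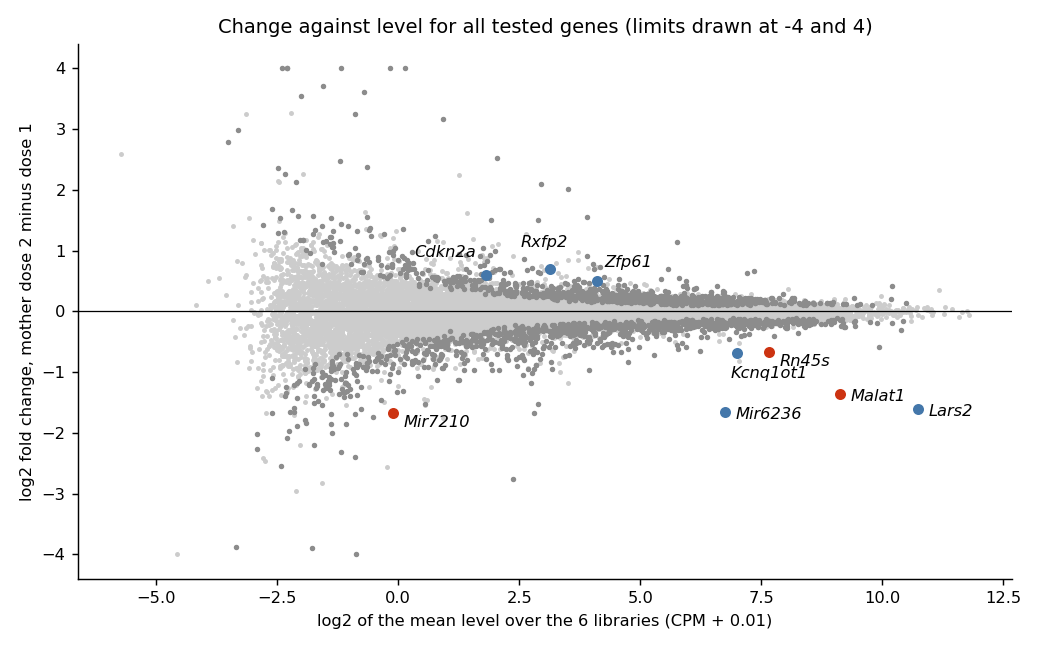
Log2 fold change (vertical axis) against log2 mean level over the 6 libraries (horizontal axis) for the 19379 tested genes; red marks the 3 that passed, blue other named genes, dark grey genes at an unadjusted p under 0.05 and light grey the rest. The 3 genes that passed lie below 0 at -0.66 to -1.67, together with Lars2 and Mir6236, while most genes of a like level lie close to 0.

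**Figure D3:**
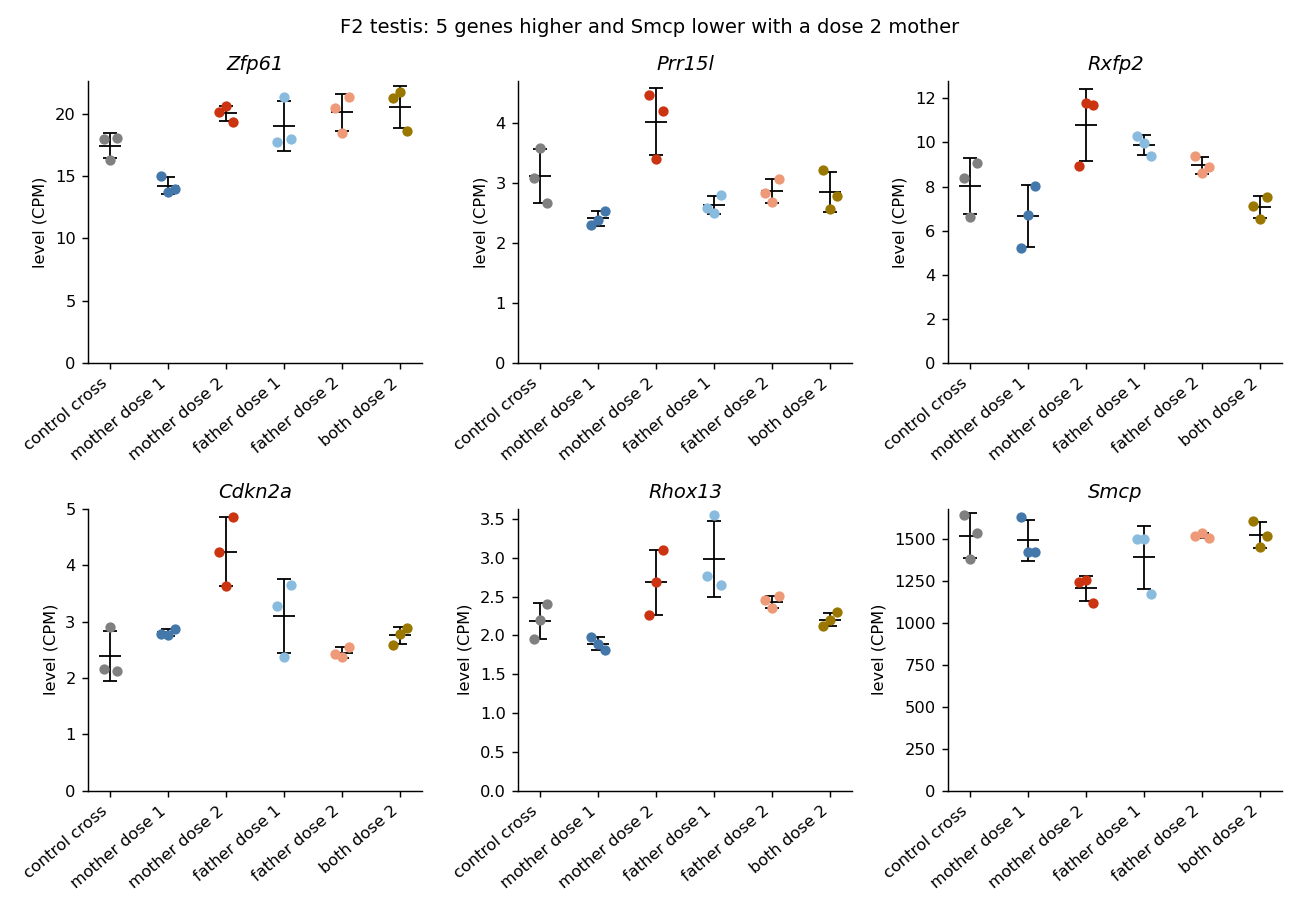
Levels in CPM (vertical axis, from 0) of 6 genes that did not pass, in the 6 crosses of F2 testis; points are libraries, the long bar the mean and the whiskers 1 SD (n = 3). Zfp61 is at 13.8 to 15.0 CPM with a dose 1 mother and at 19.4 to 20.6 CPM with a dose 2 mother, while Smcp is at 1423 to 1631 and at 1122 to 1256 CPM.

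Across all tested genes the median log2 fold change was 0.01, and the middle of the distribution ran from -0.11 to 0.11. Of the 19379 genes, 10156 were on the higher side and 9223 on the lower side. At an unadjusted p under 0.05 there were 949 genes higher (4.9%) and 1010 lower (5.21%) with a dose 2 mother. Groups did not overlap for 1550 genes that were higher (8%) and 1440 that were lower (7.43%). Lists of pathway and cell type genes are described against these shares. Several lists were drawn up with earlier results of these libraries known, so their direction is no independent evidence.

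The list labelled nuclear-retained and ribosomal precursor RNAs, which also holds the protein-coding gene Lars2, was the 1 list with members that passed. Of its 19 tested members 2 fell, Malat1 and Rn45s, and 8 were lower at an unadjusted p under 0.05 with 0 higher. The list median was -0.23 against 0.01 for all genes, and -0.28 without dose 1 A. This list was chosen partly for genes already seen to move in these libraries. Besides the genes given above, the 8 held Lncpint, a p53-linked non-coding RNA (0.312 against 1.05 CPM), Snhg14, a long imprinted transcript that hosts small nucleolar RNAs (2.28 against 3.42 CPM), and Mir7241 (0.142 against 0.717 CPM). Neat1, which builds paraspeckles, had 95.8 against 111 CPM, a log2 difference of -0.21. Not all members of the list were low. Tug1 had 114 against 118 CPM, Meg3 34.4 against 35.0 CPM, and Xist, Gas5, Norad, Miat and Gnasas1 were on the higher side by 0.09 to 0.40.

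Imprinted genes on the list used here were split evenly. Of 35 tested, 18 were higher and 17 lower, with a median of 0.00. Kcnq1ot1 was the 1 member lower at an unadjusted p under 0.05, and 3 were higher: Peg12, Nnat and Inpp5f. Snhg14, given above as an imprinted transcript and also lower at that p, is not among these 35. Nnat, the neuronatin gene, was uneven, at 0.395, 0.735 and 1.71 CPM with a dose 2 mother against 0.405, 0.368 and 0.335 CPM, and its groups overlapped.

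Clustered protocadherins are cell adhesion genes, each with a promoter of its own. Of 24 listed members tested, 6 were lower at an unadjusted p under 0.05, 0 were higher, and none passed. Pcdha5 had 0.785, 0.894 and 0.754 CPM with a dose 1 mother and 0.184, 0.380 and 0.188 CPM with a dose 2 mother, or 31, 34 and 27 counts against 7, 15 and 9. Its log2 difference was -1.69 (standard error 0.29, edgeR adjusted p = 0.0694). Pcdha9, Pcdha11, Pcdha12, Pcdhac2 and Pcdhgc4 were the others, by -0.78 to -1.54, all at low counts. Over all 47 tested genes with a clustered protocadherin symbol, 14 were lower at an unadjusted p under 0.05 (29.8%). The median was -0.49 over these 47. Over the 24 listed members it was -0.18, and -0.32 without dose 1 A.

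Classes defined only by symbol differed in the same way. Lower values at an unadjusted p under 0.05 made up 9.18% of 1263 predicted genes with a Gm number, 8.89% of 1508 Rik clones, 14.1% of 64 microRNA loci, 12.7% of 79 named pseudogenes and 14.4% of 104 olfactory and vomeronasal receptor genes. They made up 4.36% of 16314 genes with other symbols. Higher values were 2.45%, 3.51%, 0%, 6.33%, 2.88% and 5.25% in the same order. In each of these 5 classes lower values were thus more frequent than higher ones, as for the protocadherins, while genes with other symbols had slightly more higher values.

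Germ cell genes divided by stage, without any call. Spermatogonia markers were on the higher side with a dose 2 mother in 19 of 20 cases, with a median of 0.20, 4 at an unadjusted p under 0.05 and 6 with no overlap. Elongating spermatid markers were on the lower side in 22 of 25 cases, with a median of -0.10, 8 at an unadjusted p under 0.05 and 13 with no overlap. Round spermatid markers lay in between, with a median of -0.07 and 5 of 25 lower at that p. Meiotic prophase genes had a median of 0.03, and 3 of 30 were higher at that p. Without dose 1 A the spermatogonia median was 0.15 and the elongating spermatid median -0.12.

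Within the spermatogonia list, Rhox13, a homeobox gene of differentiating spermatogonia, had 1.98, 1.89 and 1.81 CPM with a dose 1 mother and 2.26, 2.69 and 3.10 CPM with a dose 2 mother. Uchl1, a ubiquitin hydrolase gene of spermatogonia, had 26, 30.3 and 32.1 CPM against 34.5, 36.6 and 34.7 CPM. In both genes the groups were separate, and the edgeR adjusted p was 0.366. Sohlh2 and Lin28a, a transcription factor and an RNA-binding protein of early germ cells, were the other 2 at an unadjusted p under 0.05. Gfra1, a receptor of stem spermatogonia, was the 1 member on the lower side, at 3.95 against 4.35 CPM. Summed over the list, the dose 2 libraries held 976, 1056 and 1111 CPM and the dose 1 libraries 932, 977 and 975 CPM, so the sums met at the edges. Dmrtb1 and Tex101 made most of these sums, with means of 622.7 and 190.8 CPM with a dose 2 mother.

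Among elongating spermatid genes, Smcp, which encodes a protein of the sperm mitochondrial capsule, had 1631, 1423 and 1423 CPM with a dose 1 mother and 1246, 1256 and 1122 CPM with a dose 2 mother. Its log2 difference was -0.30 (standard error 0.09, edgeR adjusted p = 0.346). Cabyr, a calcium-binding protein gene of the fibrous sheath, had 411, 348 and 349 CPM against 300, 326 and 295 CPM. Oaz3, Gapdhs, Odf1, Spata18, Tekt2 and Car4 were the other members at an unadjusted p under 0.05, by -0.12 to -0.37. Genes that pack sperm DNA differed less. Prm1 had 1580, 1948 and 1719 CPM against 1883, 1609 and 1566 CPM, Tnp1 1082 against 1074 CPM on average, and Prm2 3635 against 3483 CPM. List sums were 24330, 25250 and 24880 CPM with a dose 1 mother and 24400, 22770 and 22530 CPM with a dose 2 mother, so dose 2 A overlapped the dose 1 range. A separate list of sperm tail and mitochondrial capsule genes, which also holds Smcp, Cabyr, Odf1 and Tekt2, did not lean as a whole: of 30 members 16 were on the higher and 14 on the lower side, with a median of 0.00. In it 7 members were lower and 1 higher at an unadjusted p under 0.05. Acrv1, an acrosomal protein gene, was the lowest in p of the round spermatid list, at 203, 183 and 179 CPM against 154, 166 and 150 CPM.

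Ribosomal protein and respiratory chain genes lay slightly on the higher side. Ribosomal protein genes were on the higher side in 44 of 46 cases with a median of 0.10, and oxidative phosphorylation genes in 33 of 35 with a median of 0.08. In each list 4 members were higher at an unadjusted p under 0.05 and none lower. Rps3 had 71.1, 69.3 and 73.6 CPM with a dose 1 mother and 77.9, 78.6 and 86.6 CPM with a dose 2 mother. Cox4i1, a subunit of cytochrome oxidase, had 162, 179 and 179 CPM against 192, 184 and 202 CPM. These differences are small, and without dose 1 A the medians were 0.06 and 0.05. Without dose 2 C the oxidative phosphorylation median was 0.06. Other metabolic lists had no such lean: 9 cholesterol synthesis and uptake genes were on the higher and 14 on the lower side (median -0.04), and fatty acid oxidation genes with PPAR were split 11 to 10 (median 0.02).

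Cell cycle genes were on the higher side in 27 of 32 cases, with a median of 0.10. Cdkn2a, which encodes the cell cycle inhibitors p16 and p19, had 2.79, 2.76 and 2.87 CPM with a dose 1 mother and 4.24, 3.63 and 4.86 CPM with a dose 2 mother. Its groups were apart by 0.60 on the log2 scale (standard error 0.16, edgeR adjusted p = 0.319). The members at an unadjusted p under 0.05 were of both kinds: Ccnb1, Mcm2, Gins2 and Aurkb, which serve division, and the inhibitors Cdkn2a and Cdkn2d were on the higher side, and Gins1 was on the lower side.

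Androgen-producing cells gave no call. Of 19 Leydig cell markers 14 were on the lower side, with a median of -0.10. Lhcgr, the luteinizing hormone receptor, had 43.2, 31.9 and 23.0 CPM with a dose 1 mother and 23.5, 20.8 and 19.7 CPM with a dose 2 mother. Its groups overlapped and dose 1 A was the highest, so that its log2 difference went from -0.62 to -0.37 without that library. Prlr, the prolactin receptor, had 49.6, 48.8 and 51.7 CPM against 40.0, 42.1 and 36.4 CPM (edgeR adjusted p = 0.416). Star, which brings cholesterol into mitochondria, had 111, 98.8 and 125 CPM against 68.6, 107 and 81.7 CPM. The enzymes Cyp11a1, Cyp17a1 and Hsd17b3 had log2 differences of 0.08, -0.14 and -0.13, with overlapping groups.

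Sertoli cell markers were on the higher side in 18 of 26 cases, with a median of 0.07. Gata1, Inhbb, Dhh and Cst12 were higher at an unadjusted p under 0.05, and Ptgds, which makes prostaglandin D2, was lower. Cst12, a cystatin gene of Sertoli cells, had 35.5, 34.0 and 34.6 CPM with a dose 1 mother and 41.1, 42.5 and 36.9 CPM with a dose 2 mother.

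Targets of the drugs themselves did not pass where they were tested. Of 18 prostaglandin pathway genes tested, 3 were lower and 2 higher at an unadjusted p under 0.05. Ptgs2, another cyclooxygenase gene, is not among these 18. Pla2g4a, the phospholipase that frees arachidonic acid, had 3.85, 3.13 and 2.51 CPM with a dose 1 mother and 1.92, 2.38 and 2.06 CPM with a dose 2 mother (log2 difference -0.58, edgeR adjusted p = 0.345). Ptgs1, a cyclooxygenase gene, had 0.658, 0.894 and 0.698 CPM against 0.553, 0.558 and 0.604 CPM. This rests on 26, 34 and 25 counts against 21, 22 and 29. Its log2 difference was -0.39 with a standard error of 0.33 (edgeR adjusted p = 0.708). On the CPM scale the groups of both genes did not overlap, which held in the lower direction for 7.43% of all tested genes. Of 16 estrogen receptor and response genes, 1 was lower at that p: Cxcl12, a chemokine gene, at 22.5, 20.7 and 20.0 CPM against 16.7, 17.3 and 15.3 CPM. Esr1, the estrogen receptor alpha gene, had 9.11, 8.75 and 7.54 CPM against 7.79, 7.76 and 6.77 CPM, with overlapping groups.

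Markers of cells from outside the tubules were uneven between libraries. Summed adipocyte markers were at 33.5, 19.4 and 84.5 CPM in dose 2 libraries A, B and C and at 19.8, 38.5 and 26.5 CPM in the dose 1 libraries. None of the 13 was at 0 in all 6 libraries. The list median of 0.69 over 12 tested members was -0.02 without dose 2 C, which held the most Car3 (21.0 CPM) and Cfd (9.98 CPM). Dose 2 A held the most Crisp1, an epididymis gene, at 9.77 CPM against at most 1.09 CPM in the other 5 libraries. Adam7, of the same list, was also highest in dose 2 A, at 2.05 CPM against at most 0.167 CPM. Lcn8, Lcn9, Defb15 and Spint4, all at very low levels, were not highest there. The sum of the epididymis and rete list was lowest in dose 2 A, at 194 CPM against 206 to 269 CPM. Cst8 and Lcn2 made most of that sum, at 111 and 49.3 CPM in dose 2 A, so it says little about Crisp1 or Adam7. Macrophage markers were on the lower side in 12 of 13 cases, with sums of 358 to 378 CPM against 361 to 431 CPM. Aif1 alone made most of these sums, with means of 213.8 against 220.2 CPM. The part of these cells in the results above was not tested, and the log2 fold change of Malat1 was -1.33 without dose 2 C and -1.26 without dose 2 A.

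**Figure D4:**
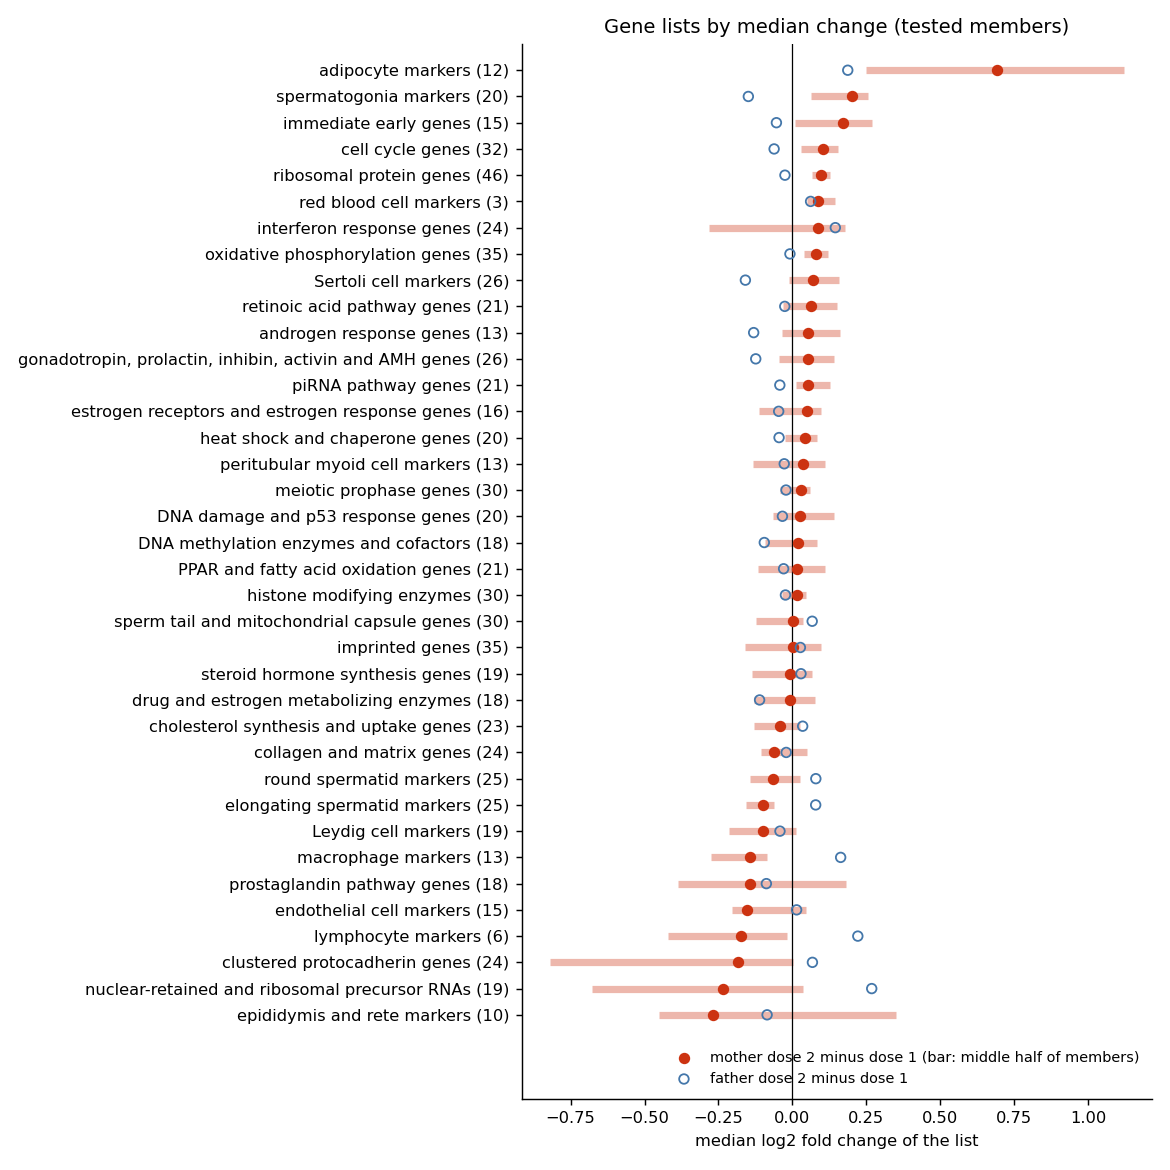
Median log2 fold change (horizontal axis) of the tested members of each gene list (vertical axis, number tested in brackets); filled red points are mother dose 2 minus dose 1 with the middle range of members as a bar, and open blue points are father dose 2 minus dose 1. Spermatogonia markers lie at 0.20 and elongating spermatid markers at -0.10 for the mothers' doses, and the adipocyte median of 0.69 rests on a single library.

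The same dose step through the father went the other way for the RNAs that fell. With a dose 1 father and a control mother, Malat1 had 396, 326 and 237 CPM. With a dose 2 father it had 545, 720 and 729 CPM, a log2 difference of 1.06 (edgeR adjusted p = 0.352). For fathers the lower dose therefore had the lower Malat1, and the groups did not overlap. Between dose 1 and dose 2 fathers no gene passed in edgeR, with 1548 genes at an unadjusted p under 0.05. The 2 dose steps share no library.

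The difference between the maternal and the paternal step was tested directly. It passed for 56 genes, 0.289% of those tested, with 4 on the higher and 52 on the lower side. For Malat1 the maternal step was 2.41 lower than the paternal step on the log2 scale, an interaction value of -2.41 (edgeR adjusted p = 0.00162). The value was -1.17 for Rn45s and -2.75 for Mir7210 (edgeR adjusted p = 0.00216 for both). All 3 genes that fell with a dose 2 mother thus differed between the parents. Of the 13 lower genes named above as passing or nearest to it, 12 passed this test, and the remaining gene, Cpa6, had an adjusted p of 0.0677. Of the 10 on the higher side 0 passed, and their lowest adjusted p was 0.104. These genes were chosen by the p of the maternal step, which is a term of the value tested here, so their counts are a description.

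Genes chosen for a difference between the steps tend to have steps of opposite sign, so the signs of the 56 are given as a description only. In 52 the dose 2 mothers were lower than the dose 1 mothers and the dose 2 fathers higher than the dose 1 fathers. The dose 2 mothers had the lowest mean of all 6 crosses in 40 of them, and 19 were predicted genes or clones. Named members with the largest values were Mir7241 (-4.59), Tbrg3 (-3.22), Pcdha8 (-3.17), Lncpint (-2.97), Mir6236 (-2.93) and Lars2 (-2.84). Protein-coding members included Galm, an enzyme of galactose metabolism (48.7 CPM with a dose 1 mother and 29.7 with a dose 2 mother, 27 with a dose 1 father and 48.9 with a dose 2 father). Tyms, the thymidylate synthase gene, had 26.3, 18.3, 18.9 and 25.4 CPM in the same order, and Creb3l4, a transcription factor gene of spermatids, 286, 237, 242 and 272 CPM. In each of these 3 genes the dose 1 mothers and dose 2 fathers were the higher pair.

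On the other side stood Ctsf, Sirt2, Apbb3 and Cdkl4. Ctsf encodes the protease cathepsin F, and its means were 21.9 and 27.6 CPM with dose 1 and dose 2 mothers and 28.1 and 20.5 CPM with dose 1 and dose 2 fathers. Sirt2, a deacetylase gene, had 139 and 155 CPM with mothers and 189 and 141 CPM with fathers. Cdkl4, a kinase gene, had 36.1 and 58.9 CPM with mothers and 64.1 and 33.6 CPM with fathers, an interaction value of 1.64 (edgeR adjusted p = 0.0336). Here dose 2 mothers and dose 1 fathers were the higher pair.

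**Figure D5:**
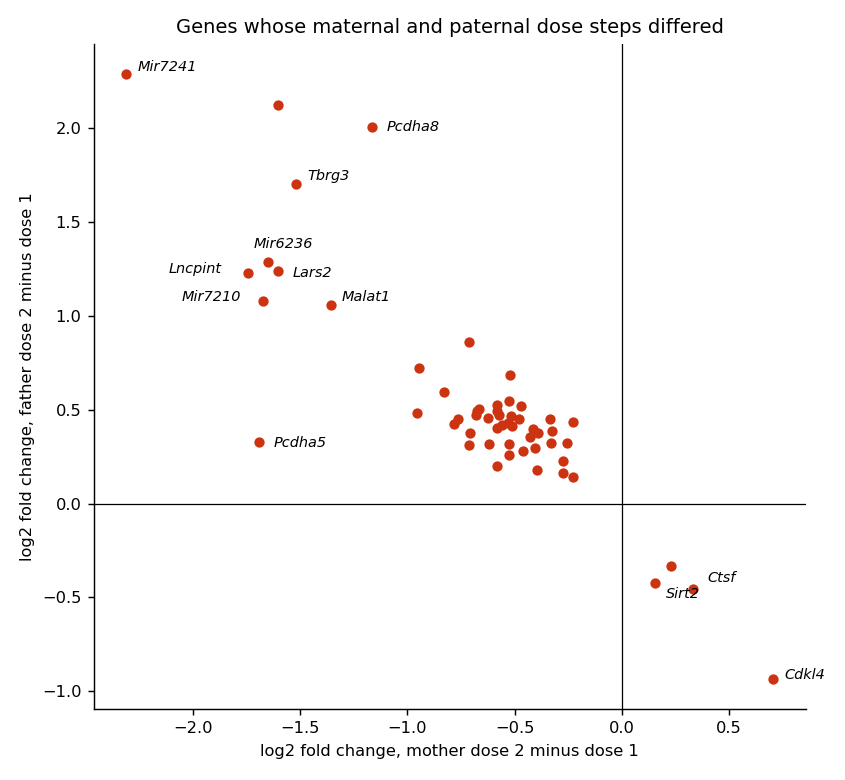
Log2 fold change of father dose 2 minus dose 1 (vertical axis) against mother dose 2 minus dose 1 (horizontal axis) for the 56 genes whose steps differed in the direct test. There are 52 genes in the upper left, where Malat1 lies at -1.36 and 1.06, and 4 in the lower right; genes were selected by the difference of the 2 steps, so their place in these corners is no separate result.

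The count of 56 also moved with single libraries. Without dose 1 A of the mothers it was 10, and it was 28 without dose 1 B, 14 without dose 2 A and 10 without dose 2 C. For the fathers it was 7 and 10 without dose 1 B and C and 27 and 9 without dose 2 A and B. Across 16223 genes the maternal and paternal steps had a Pearson correlation of -0.237 and a Spearman correlation of -0.327, given as a description, since genes of 1 library are not independent.

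The F1 generation was exposed directly, and its dose 2 minus dose 1 step in testis shares no library with the F2 crosses. From lowest to highest, Malat1 had 179, 238 and 305 CPM with dose 1 and 96.0, 165 and 177 CPM with dose 2 in F1, a log2 difference of -0.72 (edgeR adjusted p = 1). For Rn45s the F1 value was -0.49 and for Mir7210 -0.71, both also at an adjusted p of 1 in edgeR. F1 libraries were scaled separately, and unexposed F1 controls spanned 105 to 471 CPM of Malat1, a range that holds every F1 dose library other than the lowest dose 2 library. The F1 step had the sign of the F2 maternal step in the 13 lower genes, at only -0.04 for Ctla2a, and in 7 of the 10 on the higher side. The share of all tested genes with the same sign is not given here, so these counts are a description only. Rxfp2 went the other way in F1, at -0.68 (edgeR adjusted p = 1). The F1 dose 2 libraries were uneven. From lowest to highest, Rps3 had 79.1, 170 and 1040 CPM in them, and Cox4i1 had 179, 351 and 1630 CPM. Across 16220 genes the F1 step and the F2 maternal step had a Pearson correlation of 0.175 and a Spearman correlation of 0.223, given as a description. None of these F1 values passed for the 3 genes that fell in F2.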

How the data were processed

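The authors deposited raw read counts per gene for 26264 genes in 27 testis libraries, and 0 columns were left without a sample. Per the labels' protocols, libraries were made with a stranded mRNA ligation kit. Per the submitters' processing notes, the build was mm39 and the tools named included TopHat2 2.1.1, Bowtie2 2.4.5 and featureCounts 2.0.3. Not given in the sources used here are the annotation that was counted and the strand setting: antisense, overlapping and repeated genes, pseudogenes and paralogs are uncertain.

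Counts of the 18 F2 testis libraries, 6 crosses of 3, entered 1 fit of edgeR 4.0.16 in R 4.3.3 (group means, TMM scaling). filterByExpr with its minimum count set to 10 left 19379 genes, over which p-values of the quasi-likelihood test were adjusted (Benjamini-Hochberg, threshold 0.05). CPM values use TMM-scaled library sizes. The standard error is the one the F statistic implies. F1 testis (9 libraries) was fitted separately. An exact permutation test of 3 libraries against 3 cannot give a p under 0.1 and was not used. Replicate libraries differed by more than counting error, with a chi-square per degree of freedom of 10.6 to 17. The procedure was tested on simulated data.

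The comparison, its gene lists (37) and the alternatives were chosen with earlier results of these data known. All genes that passed were named, with the 10 lowest p-values in each direction among genes whose groups were separate and whose higher group averaged 1 CPM or more. Of each list the 2 members with the lowest p were taken, together with Star, Cyp11a1, Cyp17a1, Hsd17b3, Insl3, Esr1, Ptgs1, Prm1, Malat1, Rn45s, Lars2 and Kcnq1ot1; other members and the genes of the direct test between parents were picked from their values. Alternatives were RLE size factors, no filter or a minimum count of 50, DESeq2 1.42.0, a block for the replicate letter, other sets of libraries, and leaving out each library. Some genes under this rule are not reported here. RefSeq promoters matched 72 of 99 named genes, and microRNA entries 2 of 2.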

Additional observations from a re-analysis of the deposited data

Results flagged for a closer look

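Between dose 2 and dose 1, 56 genes differed in their step through the mother and through the father by the direct test (edgeR quasi-likelihood interaction, Benjamini-Hochberg adjusted p under 0.05), which is why they deserve a closer look. Among the genes named in the text, the maternal minus paternal difference on the log2 scale was -2.41 for Malat1, -2.75 for Mir7210 and -1.17 for Rn45s. It was -4.59 for Mir7241, -3.22 for Tbrg3, -3.17 for Pcdha8, -2.97 for Lncpint, -2.93 for Mir6236, -2.84 for Lars2, -2.02 for Pcdha5 and -1.57 for Galm. For Olfr856-ps1 it was -1.17, for Kcnq1ot1 -1.15, for Grk1 -1.08, for Myoparr -1.07 and for Vmn2r-ps54 -1.05. Values nearer 0 were -0.96 for Tyms, -0.94 for Ctla2a, -0.78 for Mrgpra6, -0.57 for Prnp and -0.44 for Creb3l4. The difference was above 0 for Cdkl4 (1.64), Ctsf (0.79), Sirt2 (0.58) and Apbb3 (0.56). No rule for single outlying values within groups of 3 libraries was applied to these genes. The count of 56 itself ran from 7 to 84 when a library was left out.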

How the results depend on the processing

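The count of 3 genes between the mothers' doses, all lower, was the same with RLE size factors, without a filter and with a minimum count of 50. DESeq2 gave 62 (8 higher, 54 lower). It was 0 in edgeR with only the 6 libraries compared and 0 with all 27 testis libraries (1787 and 714 genes at an unadjusted p under 0.05), and 0 to 18 when a library was left out. The 56 genes that differed between the parents were 58 with RLE size factors and 60 without a filter. They were 249 in DESeq2 (61 higher, 188 lower) and 7 to 84 with a library left out. With the letter as a replicate block the counts were 16, all lower, and 100. The letters were not taken as pairs: deviations of same-letter libraries correlated at 0.135 (A), -0.00935 (B) and 0.0663 (C), and not every library correlated best with its own letter. Malat1, Rn45s and Mir7210 stayed lower under every alternative run. Of 1254 values of single genes under the alternatives, 4 changed sign, all when a library was left out. Crisp1 ranged from -0.97 (without dose 2 A) to 6.86, Insl3 from -0.29 (without dose 2 C) to 0.33, Alas2 from -0.0092 (without dose 2 C) to 0.14, and Prm1 from -0.14 to 0.031 (without dose 1 B). List medians changed sign in 28 of 296 cases, in 13 of 37 lists. Causes were not tested. Genes at a few counts per library, such as Mir7210 and Pcdha5, are limited by depth.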
